A study of Mus musculus with 32 samples.

Results

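The cytoplasmic ribosomal protein genes encode the proteins of the large (Rpl) and small (Rps) ribosomal subunits, and they are described here across 8 groups of tumour-specific CD8+ T cells. Members were chosen by name alone: every Rpl or Rps symbol of a numbered protein, together with Rplp0, Rplp1, Rplp2 and Rpsa, without names that mark a pseudogene. This gave 89 of the 46517 genes in the table, 52 of the large and 37 of the small subunit. Of these, 86 reached 1 TPM (a level per transcript length, scaled to the same total in each library) in at least 4 of 32 libraries and entered the tests, with 19738 genes tested in all.

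The cells were sequenced in bulk: CD8+ Thy1.1+ T cells of the Pmel type, whose receptor sees a melanocyte antigen, from C57BL/6 mice aged 16 weeks. All libraries, those of naive cells included, carry the label of melanoma-associated vitiligo (MAV), the loss of pigment that can follow an immune response to melanoma. There were 4 libraries in each of 8 groups: Skin, Lung, Liver and lymph node memory (Mem_LN), which the series describes as taken 45 days after tumour surgery, then Spleen, tumour (TIL), tumour-draining lymph node at day 12 (TDLN_D12) and Naive cells of the spleen. The labels give no time for the Spleen, TIL and Naive groups, nor do they say whether libraries of a group came from separate animals, so p-values measure the spread between these libraries only. Lymph nodes were dissociated mechanically, skin and liver were digested with collagenase, and lung with Liberase, with a density gradient for lung and liver. Tissue, time and dissociation cannot be told apart.

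Ribosomal proteins are made in nearly equal numbers, and for most of them 1 copy goes into a ribosome with the ribosomal RNAs. Their mRNAs are among the most abundant of a cell, and most begin with a cytosine followed by a run of pyrimidines, the terminal oligopyrimidine (TOP) tract, through which the kinase complex mTORC1 and the protein Larp1 set their translation together. A resting T cell stores such mRNAs and makes many new ribosomes after antigen. Several genes have a paralog whose product can take the same place in the ribosome, and the genome holds many processed copies of these genes.

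The start sites of a few genes named below show the tract. The lines give 30 bases, 15 on each side of an annotated start (RefSeq, GRCm38.p6), found by a search for C followed by at least 4 further C or T. Capitals mark the longest such run, and shorter runs that also meet the rule stay in lower case. For a gene with several annotated starts, the start with the longest run is shown: 2 of the 3 Rps19 starts and 1 of the 2 Rps27l starts had none. Rps27 and Rps27l are shown because they differed most between TDLN_D12 and Naive cells. Rps19, Rps26 and Rpl22l1 are shown because they were called in a comparison, and Rps6 as a textbook TOP gene. Other called genes are not shown, among them Rpl39, with runs beginning 20 and 4 bases before and 6 bases after its start. Rpl36al, also not shown, had a run of 5 bases beginning 13 bases after its start.
Rps27 (chr3:90213634-90213663, minus strand): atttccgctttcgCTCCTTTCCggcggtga
Rps27l (chr9:66946071-66946100, plus strand): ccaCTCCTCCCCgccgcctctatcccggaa
Rps19 (chr7:24884898-24884927, plus strand): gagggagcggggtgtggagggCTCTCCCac
Rps26 (chr10:128626492-128626521, minus strand): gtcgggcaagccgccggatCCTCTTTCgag
Rpl22l1 (chr3:28805493-28805522, plus strand): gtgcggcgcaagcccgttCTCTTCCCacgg
Rps6 (chr4:86857353-86857382, minus strand): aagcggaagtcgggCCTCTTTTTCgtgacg
In Rps27 and Rps6 the longest run crosses the annotated start, and in Rps19, Rps26 and Rpl22l1 it begins within 6 bases after it. In Rps27l the longest run lies upstream and a shorter one (cctct) begins 1 base after the start. Rps27 also has a shorter run (ctttc) 8 bases before its start. RefSeq promoters were held for 64 members, 76 promoters in all. A tract of at least 5 bases that begins within 20 bases of the start was found in 69.7% of them, against 45.9% of 32775 promoters of all other genes. A tract of 8 or more bases was in 40.8% against 12.5%. The motif CCGGAAGT, on either strand of the 300 bases, was in 15.8% against 3.86%. These are descriptions of letters, not of use.

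The annotation (GENCODE, GRCm38) held 88 of the 89 members, spread over 19 chromosomes, and 84 of them were protein coding. The other 4 it calls pseudogenes (Rps4l, Rps12l1, Rps3a2 and Rps3a3). Because processed copies can take reads from the parent gene, the transcripts were compared in words of 50 bases. In all, 230 other genes shared at least 50% of their words with a member, of which 204 were in the table. All of them are called copies here. Besides processed pseudogenes they include genes annotated as protein coding, lincRNA, small nucleolar RNA or microRNA. In every library these copies held between 14.2% and 21.6% of the summed TPM of members and copies. The plainest case was Rps12, a small-subunit protein, which was listed at 0 in all 32 libraries while a copy, Rps12.ps3, averaged 256 TPM and Rps12l1 averaged 134 TPM. Rpl5, which with Rpl11 and the 5S RNA forms a particle that binds Mdm2, averaged 20.3 TPM, and its copy Gm15500 averaged 457 TPM. Rpl12 averaged 29.6 TPM beside 386 TPM for its copy Gm10275, and Rpl27a 109 TPM beside 406 TPM for Gm7536. The sources used here do not say how reads with several matches were placed. The levels of these 4 genes, and of other members with such copies, are therefore uncertain. Among the others, Gm12918 shares 100% of its words with Rpl13 and averaged 531 TPM. Rpl27.ps3 shares 100% of its words with Rpl27 and averaged 595 TPM. Adding copies to their parents changed 3 of the 76 calls named in the comparisons.

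All 16 genes of the T cell list were detected in each group, and Cd8a was at 57.0 TPM or more in every library. The summed T cell list was under 0.5 of its median over libraries in 6 of them: Spleen 4, Skin 4, Liver 2, 3 and 4, and TIL 4. Markers of other cells moved with the groups. The 14 myeloid genes summed to 35.5 to 7247 TPM in Skin, 1362 to 11181 TPM in Lung, 1575 to 18849 TPM in Liver, 70.2 to 623 TPM in Mem_LN and 657 to 8655 TPM in Spleen libraries. They summed to 318 to 532 TPM in TIL, 38.4 to 56.7 TPM in TDLN_D12 (Cd14 and S100a8 at 0) and 2.85 to 5.35 TPM in Naive libraries, where 0 of the 14 averaged 1 TPM. Spleen 4 held the highest B cell sum of its group (10 genes, 18507 TPM against 1585 to 9042 TPM in the other Spleen libraries), and Lung 3 the highest of all (47417 TPM). Globin and other erythroid genes (7 genes) summed to 557 to 91051 TPM in Liver, 3609 to 12466 TPM in TIL and 0.69 to 2.42 TPM in TDLN_D12 libraries. How much these cells contributed to the ribosomal protein values was not tested, and the main counts of calls in groups that hold the 6 libraries are given with and without them. The libraries numbered 4 stood apart in several groups: 4 of the 6 were numbered 4, and number 4 had the lowest family share in 5 of 8 groups (Spleen, Skin, Lung, Liver and TIL). It also had the highest percentage of copies, as defined above, in 6 of 8 groups, all but TDLN_D12 and TIL. The labels do not say what the number marks, and its part in the results was not tested beyond leaving these libraries out, an alternative chosen after the data were seen. In bulk RNA, fewer cells of a type and less RNA per cell cannot be told apart.

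Ribosomal protein mRNA took the largest share of the library in Naive cells and the smallest in Liver and Skin. The summed share of all TPM was 3.00%, 4.09%, 4.44% and 2.03% in Skin, 3.88%, 4.78%, 4.34% and 3.33% in Lung, and 3.66%, 2.35%, 5.22% and 2.09% in Liver libraries. It was 3.70%, 4.43%, 5.03% and 4.25% in Mem_LN, 7.21%, 6.52%, 8.67% and 3.77% in Spleen, and 5.89%, 3.96%, 3.94% and 3.46% in TIL libraries. In TDLN_D12 libraries it was 5.93%, 6.43%, 7.09% and 7.77%, and in Naive libraries 9.85%, 8.10%, 7.64% and 8.22%. Every TDLN_D12 and Naive library lay above all Mem_LN, Lung, Skin, Liver and TIL libraries, and 3 of the 4 Spleen libraries did too.

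By mean share the order was Liver (3.33% ± 1.44), Skin (3.39% ± 1.09), Lung (4.08% ± 0.62), TIL (4.31% ± 1.08), Mem_LN (4.35% ± 0.55), Spleen (6.54% ± 2.06), TDLN_D12 (6.80% ± 0.80) and Naive (8.45% ± 0.96; SD, n = 4 each). Each pair of neighbours in this order overlapped, so no 2 neighbours differed beyond the spread of their libraries. Leaving out libraries low in T cell genes, the mean was 3.85% in 3 Skin, 4.59% in 3 TIL and 7.47% in 3 Spleen libraries. The large subunit made up 58.1% ± 0.56 of the family in Skin and 55.1% ± 0.20 in Naive libraries, the ends of a narrow range of group means.

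**Figure D1:**
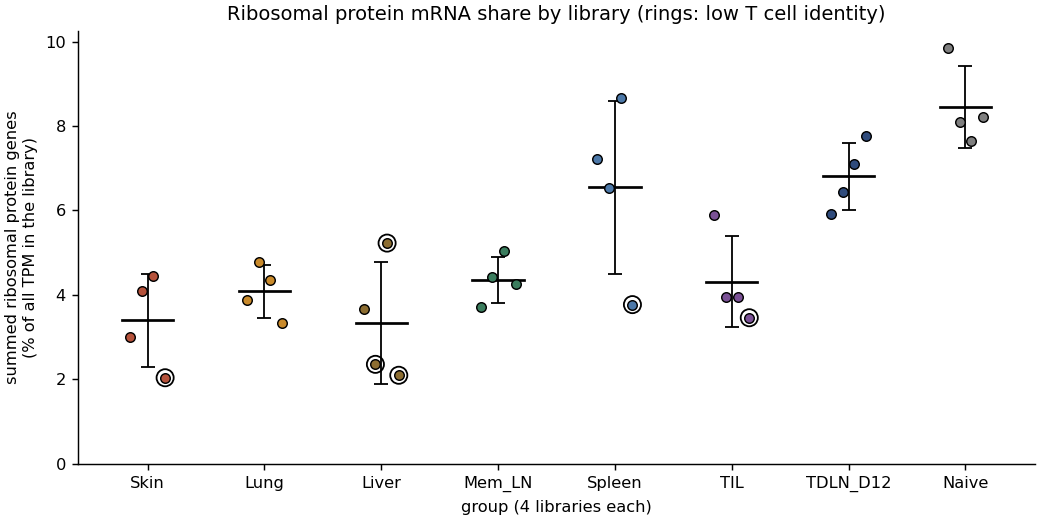
Summed TPM of the 89 ribosomal protein genes as a percentage of each library, for 8 groups of 4 libraries (points), with the mean and SD (bars) and rings around the 6 libraries of low T cell identity. TDLN_D12 and Naive libraries lie between 5.93% and 9.85%, and all Skin, Lung, Liver and Mem_LN libraries at 5.22% or less.

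Levels ranged widely between members on the TPM scale, which is per length. The highest means over all libraries were those of Rps19 (2016 TPM), a protein of the small subunit whose gene is mutated in human Diamond-Blackfan anaemia, Rpl13a (1766 TPM), Rpl13 (1722 TPM) and Rpl32 (1635 TPM). In all, 15 members averaged at least 1000 TPM and 78 at least 100 TPM, and 27 were among the 200 genes of highest mean. At the low end, beside Rps12, stood Rpl10l, a paralog known from the testis (0.082 TPM), Rpl3l, one known from striated muscle (0.213 TPM), and the pseudogene Rps3a3 (0.293 TPM). Rpl39l, also a testis paralog, averaged 5.15 TPM.

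Of the 86 members, 51 had their highest group mean in Naive, 23 in TDLN_D12 and 8 in Spleen, and 51 had their lowest in Liver and 24 in Skin. The same shares of all genes were not counted. The median log2 of all tested genes was also lowest in Liver by group mean, at 1.54, against 2.03 to 2.61 in the other groups. For the 82 members with at least 10 TPM, the highest group mean was a median of 2.88 times the lowest. An F test over the 8 group means (limma, p-values adjusted over all tested genes) called 73 of 86 members at 0.05, where it called 46.9% of all genes. The 13 not called were Rpl5, Rpl10, Rpl13a, Rpl34, Rpl37, Rpl38, Rpl39l, Rpl41, Rps28 and the 4 low-level copies Rps3a2, Rps3a3, Rps4l and Rps12l2. When each library was centred on its own family median, which removes what the members share, 21 were called, against 63.0% of all genes. Centring brings the members near 0 by construction and shifts all other genes by the same amount. In Mem_LN against TDLN_D12 cells it moved the median of all genes from 0.26 to 0.98. Shares of all genes in centred fits therefore include this shift and are no neutral background for the members. The comparisons below give both the level of each gene and its difference relative to the family median.

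**Figure D2:**
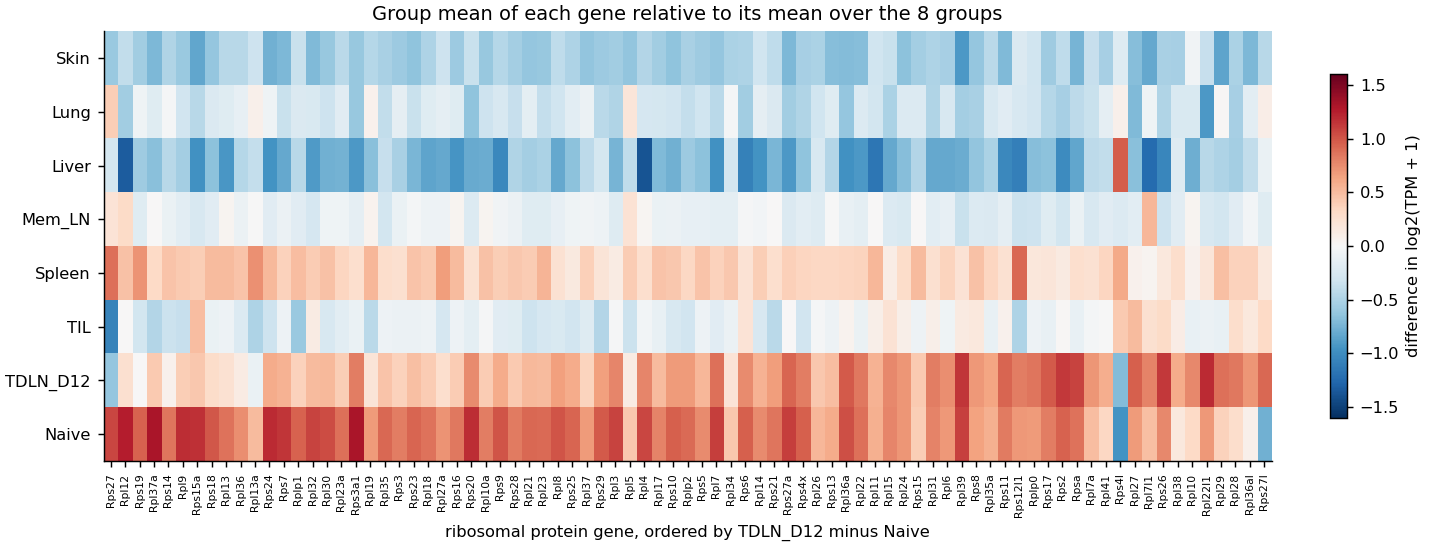
Mean log2(TPM + 1) of each group (rows) relative to the gene's mean over the 8 groups, for members of at least 10 TPM that are reported here (columns, ordered by TDLN_D12 minus Naive). The TDLN_D12 and Naive rows are high for most genes, and the ends of the order, Rps27 on the left and Rps27l on the right, are opposite in these rows.

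TDLN_D12 cells at day 12 differed from Naive cells less in the family as a whole than in 1 pair of paralogs: Rps27l was higher and Rps27 lower. Of 86 members 1 was called higher and 2 lower by limma, against 5.95% and 5.14% of all tested genes, so the share of members called was below the background. The median member differed by -0.23 on the log2(TPM + 1) scale and the median tested gene by -0.19. In all, 36 members had groups that did not overlap, 6 higher and 30 lower, where 19.5% and 31.7% of all genes did. With quantile normalization the median member differed by -0.37 and the median gene by -0.07. In that fit 14 members were called lower, where 4.43% of all genes were.

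Rps27, a zinc-finger protein of the small subunit, stood at 622, 713, 824 and 779 TPM in TDLN_D12 libraries, against 2763, 2237, 2067 and 2409 TPM in Naive libraries. The highest TDLN_D12 library was below 0.5 of the lowest Naive library. The difference was -1.69 ± 0.41 (log2, SE) with an adjusted p of 0.00524.
Rps27l, its paralog and a known target of p53, stood at 658, 616, 692 and 714 TPM in TDLN_D12 libraries, against 227, 202, 183 and 218 TPM in Naive libraries. The groups did not overlap, and the difference was 1.69 ± 0.31 with an adjusted p of 0.000296. Both calls held without any 1 library, and without the libraries numbered 4 (adjusted p 0.000197 for Rps27 and 0.00686 for Rps27l).
Rps27rt, a copy that shares 91.1% of its words with Rps27, followed Rps27: 753 ± 158 TPM in TDLN_D12 and 2454 ± 365 TPM in Naive libraries (SD, n = 4 each). With copies added to their parents, Rps27 stayed called with an adjusted p of 0.00351. Rps27l shares 11.2% of its words with other genes.

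The share of Rps27l in the sum of Rps27l and Rps27, a description of levels with no test, was 47.8% ± 2.6 in TDLN_D12 and 8.08% ± 0.34 in Naive libraries. Counting Rps27rt with Rps27, it was 31.2% ± 2.4 in TDLN_D12 and 4.14% ± 0.41 in Naive libraries. TIL libraries lay near TDLN_D12, at 45.3% ± 4.1, with 446 ± 100 TPM of Rps27l and 544 ± 136 TPM of Rps27. The share was 20.7% ± 3.0 in Lung, 19.2% ± 2.8 in Mem_LN and 16.9% ± 5.8 in Spleen libraries, each above the highest Naive library, which was at 8.30%. Skin (28.1% ± 20.4) and Liver (27.8% ± 12.7) were spread widely. In Skin this came from 1 library of low T cell identity, at 58.7%, and the other 3 lay between 16.3% and 19.7%. The Liver mean rests on 3 libraries of low T cell identity, and Liver 1, the other one, was at 24.2%.

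**Figure D3:**
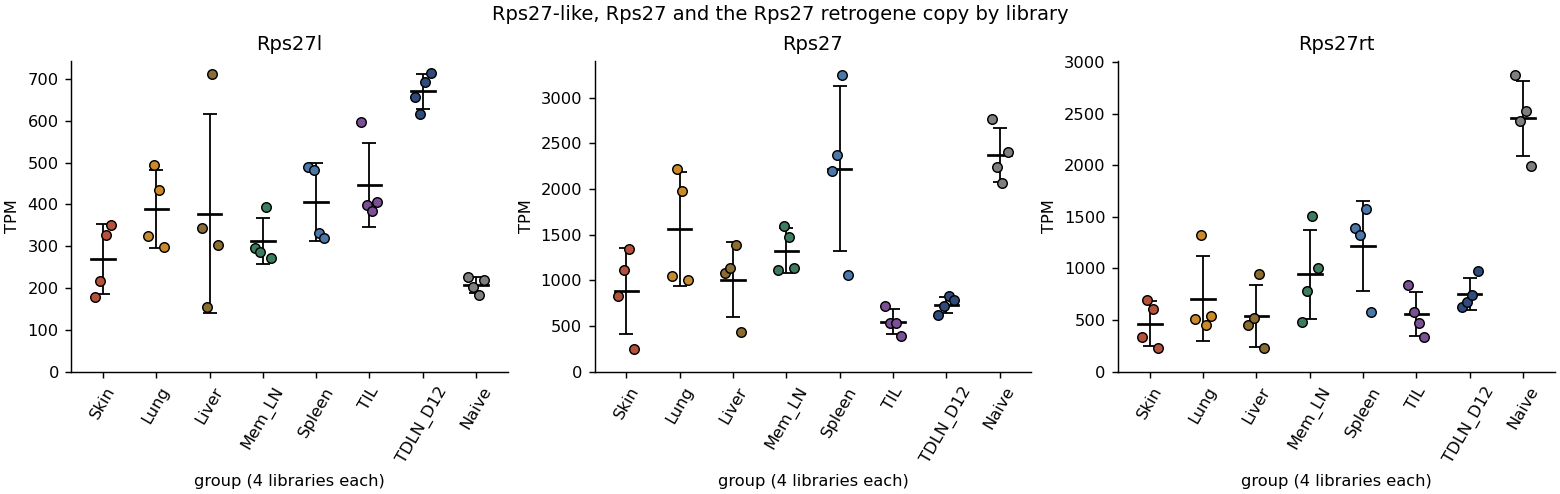
TPM of Rps27l, Rps27 and the Rps27 copy Rps27rt in each library (points) of the 8 groups, with mean and SD (bars); the 3 panels have their own axes, each from 0. TDLN_D12 is highest for Rps27l, at 616 to 714 TPM, and Naive is highest for Rps27rt.

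Rps19 was the other member called lower, at 1663, 1702, 1984 and 2039.6 TPM in TDLN_D12 libraries, against 4158, 3248, 3145 and 3644 TPM in Naive libraries. The groups were apart, with a difference of -0.94 ± 0.29 and an adjusted p of 0.0332. This call did not hold when any 1 of the 8 libraries was left out (adjusted p 0.0527 to 0.104).
Relative to the family median, 4 members were called higher and 2 lower, against 6.4% and 2.09% of all genes. The higher ones were Rps27l, Rpl36al (0.83 ± 0.20, adjusted p 0.0057), Rpl28 (0.78 ± 0.23, adjusted p 0.027) and Rpl29 (0.73 ± 0.22, adjusted p 0.0283), the last 3 of the large subunit, and Rps27 and Rps19 were the lower ones. Rpl36al is the paralog of Rpl36a, and stood at 780.3 ± 71.5 TPM in TDLN_D12 and 509.9 ± 55.8 TPM in Naive libraries. The counts rest on the fit used: with only TDLN_D12 and Naive libraries in the fit, 10 members were called higher and 36 lower, where 28.3% and 44.1% of all genes were.

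Rpl22, an RNA-binding protein that mice need for the development of alpha-beta T cells, has the paralog Rpl22l1. Rpl22l1 made up 57.1% ± 1.8 of the pair in TDLN_D12 and 48.0% ± 1.5 in Naive libraries. It made up 56.4% ± 3.9 in Skin, 39.7% ± 10.3 in Lung and 59.3% ± 4.8 in Liver libraries (57.2% in Liver 1), against 48.1% ± 4.9 in Spleen libraries. The low Lung mean came from Lung 2, at 24.3%, and the other 3 lay between 42.8% and 46.3%. Rpl36al made up 76.8% ± 3.0 of its pair with Rpl36a in Liver (75.9% in Liver 1), 75.1% ± 2.0 in Lung, 70.0% ± 2.6 in Mem_LN, 70.4% ± 1.7 in TIL and 64.5% ± 1.3 in TDLN_D12 libraries. It was lowest in Naive libraries, at 53.4% ± 2.3, with no overlap with any of these groups. Rpl7l1, a factor related to Rpl7, was 13.5% ± 4.6 of its pair in Mem_LN and 5.75% ± 0.60 in Naive libraries. For Rpl3l, Rpl10l, Rpl39l and Rps4l the paralog was a group mean of 9.49% of its pair or less. These shares are descriptions with no test.

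**Figure D4:**
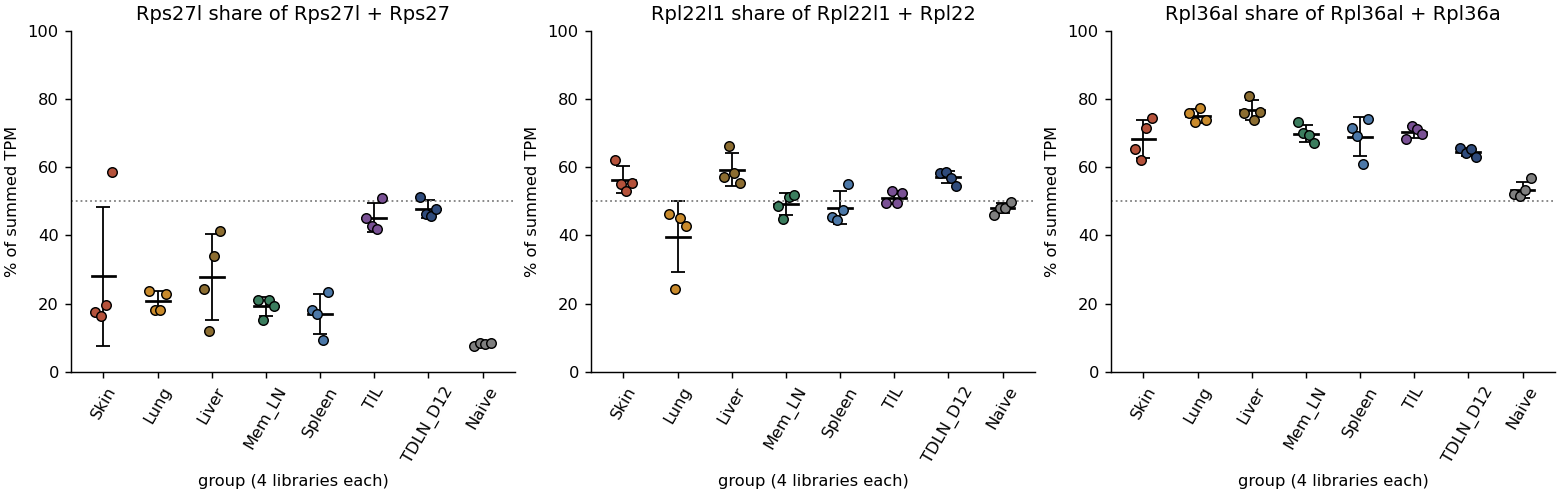
Share of Rps27l, Rpl22l1 and Rpl36al in the summed TPM of each paralog pair, per library (points) in the 8 groups, with mean and SD (bars) and a dotted line at equal parts. Rps27l is 47.8% of its pair in TDLN_D12 and 8.08% in Naive, and the other pairs stay between 39.7% and 76.8% by group mean.

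Spleen cells differed from Naive cells in few single members. Among 86 members 2 were called lower and 0 higher, against 2.46% and 3.62% of all genes. An unadjusted p under 0.05 was found in 23 members, and the share of all genes at that threshold was not counted. The median member differed by -0.45 and the median gene by -0.05. In 2 members every Spleen library was above every Naive library and in 20 below, where 8.16% and 11.4% of all genes were. Rps3a1, a small-subunit protein, was at 889, 673, 1402 and 832 TPM in Spleen libraries, against 2099.7, 1863, 1602 and 1954 TPM in Naive libraries (difference -1.03 ± 0.26, adjusted p 0.0138). Rpl3, which in yeast reaches towards the peptidyl transferase centre, was at 436, 430.1, 818 and 491 TPM in Spleen libraries, against 1149, 1010.3, 895 and 1043 TPM in Naive libraries (difference -0.96 ± 0.28, adjusted p 0.0363). Every Spleen library was below every Naive library for both genes, but neither call held relative to the family median. There Rps27l (1.41 ± 0.27, adjusted p 0.000767) and Rpl36al (0.75 ± 0.20, adjusted p 0.0184) were called higher and 0 lower, against 6.46% and 0.502% of all genes. Rps27l averaged 406 ± 93 TPM in Spleen and 207 ± 19 TPM in Naive libraries, with no overlap.
The 2 calls shrank to 0 without Naive 1 or without Spleen 2, to 1 without any other library but Spleen 3, and were 6 without Spleen 3. In these fits 1.25% to 3.73% of all genes were called lower. Without Spleen 4 and the other libraries low in T cell genes, 12 members were called lower, where 14.6% of all genes were. Without the libraries numbered 4 the count was 0, where 2.74% of all genes were.

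Mem_LN cells had less ribosomal protein mRNA than TDLN_D12 cells. Of 86 members 20 were called lower and 0 higher, against 2.99% and 4.42% of all genes, and the median member differed by -0.69 while the median gene differed by 0.26. In 60 members every Mem_LN library was below every TDLN_D12 library and in 1 above, which held for 11.2% and 26.2% of all genes. The largest difference was that of Rpl39, a small protein that lines the peptide exit tunnel, at 114, 171, 292 and 199 TPM in Mem_LN libraries, against 432, 505, 551 and 611 TPM in TDLN_D12 libraries (-1.50 ± 0.31, adjusted p 0.00239). Rps26, which sits where mRNA leaves the small subunit, was at 367, 429.7, 536 and 432 TPM in Mem_LN libraries, against 988, 1159, 1288 and 1451 TPM in TDLN_D12 libraries (-1.47 ± 0.33, adjusted p 0.00434). Rpl22l1 was at 142, 158, 228 and 214 TPM in Mem_LN libraries, against 452, 508, 529.6 and 508 TPM in TDLN_D12 libraries (-1.45 ± 0.32, adjusted p 0.00349). None of these 3 overlapped between the groups.
Rps2 (474 ± 7 TPM in Mem_LN and 1277 ± 83 TPM in TDLN_D12 libraries), the stalk protein Rplp0 (592 ± 32 TPM in Mem_LN and 1353 ± 115 TPM in TDLN_D12 libraries) and Rps27l (312 ± 55 TPM in Mem_LN and 670.1 ± 42.9 TPM in TDLN_D12 libraries) were also called lower. Rps27 ran the other way, at 1111, 1592, 1470.1 and 1132 TPM in Mem_LN libraries, against 622, 713, 824 and 779 TPM in TDLN_D12 libraries. It was higher in every Mem_LN library, with a difference of 0.84 ± 0.41 that was not called (adjusted p 0.24), and of 1.56 ± 0.30 relative to the family median (adjusted p 0.000774).
Relative to the family median 6 members were called higher (among them Rps27, Rpl13a, Rpl19, Rps14 and Rps19) and 3 lower (Rpl39, Rps26 and Rps2), against 24.8% and 1.3% of all genes. With 1 library left out 9 to 18 members were called lower, where 1.97% to 2.45% of all genes were. Leaving out any library but Mem_LN 3 moved the count by over 1.5 times: it was 13 without TDLN_D12 1 or Mem_LN 4, 11 without TDLN_D12 4, 10 without TDLN_D12 2 or 3 or Mem_LN 2, and 9 without Mem_LN 1. Without the 6 libraries low in T cell genes, none of which is in these groups, 53 were called lower, all 20 among them, against 6.77% of all genes. Without the libraries numbered 4, 13 of the 20 and no other member were called lower, against 2.11% of all genes.

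TIL cells also had lower ribosomal protein mRNA than TDLN_D12 cells. Of 86 members 12 were called lower and 0 higher, against 2.42% and 4.55% of all genes, with a median difference of -0.62 for members and 0.03 for all genes. In 44 members every TIL library was below every TDLN_D12 library and in 0 above, which held for 22.2% and 20.1% of all genes. Rpsa, the small-subunit protein first described as a laminin receptor, was at 419, 281, 264.5 and 253 TPM in TIL libraries, against 567, 676, 736 and 778 TPM in TDLN_D12 libraries (-1.20 ± 0.28, adjusted p 0.00659). Rps4x, encoded on the X chromosome, was at 435, 302, 306 and 239.5 TPM in TIL libraries, against 595, 669, 755 and 738 TPM in TDLN_D12 libraries (-1.13 ± 0.25, adjusted p 0.00424). Rpl22l1 averaged 206 ± 42 TPM in TIL and 499 ± 33 TPM in TDLN_D12 libraries (-1.29 ± 0.32, adjusted p 0.0106). The groups did not overlap in any of the 3, with TIL 1 the highest TIL library in each.
Relative to the family median none was called lower, and Rps15a (0.73 ± 0.22, adjusted p 0.0221) and the low-level copy Rps12l2 were called higher, against 0.578% of all genes lower and 15.9% higher. Centring also raises the difference of a gene near 0 TPM, so the Rps12l2 call restates in part the difference of the family. Rps15a was at 608 ± 174 TPM in TIL and 566 ± 65 TPM in TDLN_D12 libraries, with overlap. TIL libraries held 5.43% to 14.8% of TPM in mitochondrial genome transcripts, against 2.28% to 3.04% in TDLN_D12 libraries. The part of that difference in the result was not tested, and with mitochondrial and marker genes taken out of the TPM the median member differed by -0.50.
The count was 24 without TIL 1, and it was 8 or fewer without any other single library: 8 without TDLN_D12 1, 7 without TDLN_D12 2, 5 without TDLN_D12 3 or TIL 2, 6 without TDLN_D12 4 or TIL 3, and 4 without TIL 4, where 1.26% to 2.48% of all genes were called lower. Without the 6 libraries low in T cell genes, of which TIL 4 is one, 32 were called lower, all 12 among them, against 6.09% of all genes. Without the libraries numbered 4 it was 3, all among the 12, against 1.1% of all genes. TIL libraries also held melanocyte and melanoma genes: 8 of 8 averaged at least 1 TPM in TIL and 2 of 8 in TDLN_D12, with sums of 419 to 973 TPM in TIL and 7.18 to 10.4 TPM in TDLN_D12 libraries. The part of such cells in these values was not tested.

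Against Spleen, cells of 4 sites had lower values of nearly every member, and how many were called depended on the libraries used. The median member differed by -0.91 in Skin, -0.64 in Lung, -1.05 in Liver and -0.50 in Mem_LN libraries, where the median gene differed by -0.12, 0.04, -0.53 and 0.17. The number of members with a lower mean log2 value was 84 in Skin, 84 in Lung, 83 in Liver and 84 in Mem_LN, of 86. The share of all genes with a lower mean was not counted, so the medians of all genes are the only background for these counts. The 4 comparisons share their Spleen libraries, so their likeness is no independent evidence.
In Skin 32 members were called lower and 0 higher, against 3.34% and 4.33% of all genes. In Liver 53 were called lower and 0 higher, against 11.1% and 2.45% of all genes. In Lung no member was called, where limma called 0.0608% of all genes lower and 0.0507% higher and 41 members had an unadjusted p under 0.05. In Mem_LN no member was called either, where 0.122% of all genes were called lower and 0.36% higher and 14 members had an unadjusted p under 0.05. The share of all genes at an unadjusted p under 0.05 was not counted, so the 41 and the 14 have no background here. The members whose libraries were all below those of Spleen numbered 12 in Lung and 4 in Mem_LN, where 0.958% and 1.06% of all genes were, and 0 were all above, where 0.861% and 4.32% were.

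Spleen 4 was unlike the other Spleen libraries in the family share given above, in its B cell sum and in its myeloid sum (8655 TPM against 657 to 989 TPM). Without the 6 libraries low in T cell genes, which leaves 3 Spleen and 3 Skin libraries, 68 members were called lower in Skin, where 5.41% of all genes were. The count was then 63 in Lung, where 1.24% of all genes were called lower, and 59 in Mem_LN, where 1.45% were. In Liver it was 22, where 1.71% of all genes were, but a single Liver library remained and is assumed to vary like the other groups. Of the 53 members called lower in Liver, 18 were among these 22. Leaving out Spleen 4 alone gave 55 lower members in Skin, 65 in Liver and 0 in both Lung and Mem_LN. Of all genes 2.88% were then lower in Skin, 6.78% in Liver, 0.0861% in Lung and 0.127% in Mem_LN. Without all libraries numbered 4, 36 members were lower in Skin, 59 in Liver, 0 in Lung and 1 in Mem_LN, where 1.82%, 5.96%, 0.076% and 0.193% of all genes were. The median difference without the 6 libraries was -0.98 in Skin, -0.88 in Lung, -1.01 in Liver and -0.73 in Mem_LN libraries.

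**Figure D5:**
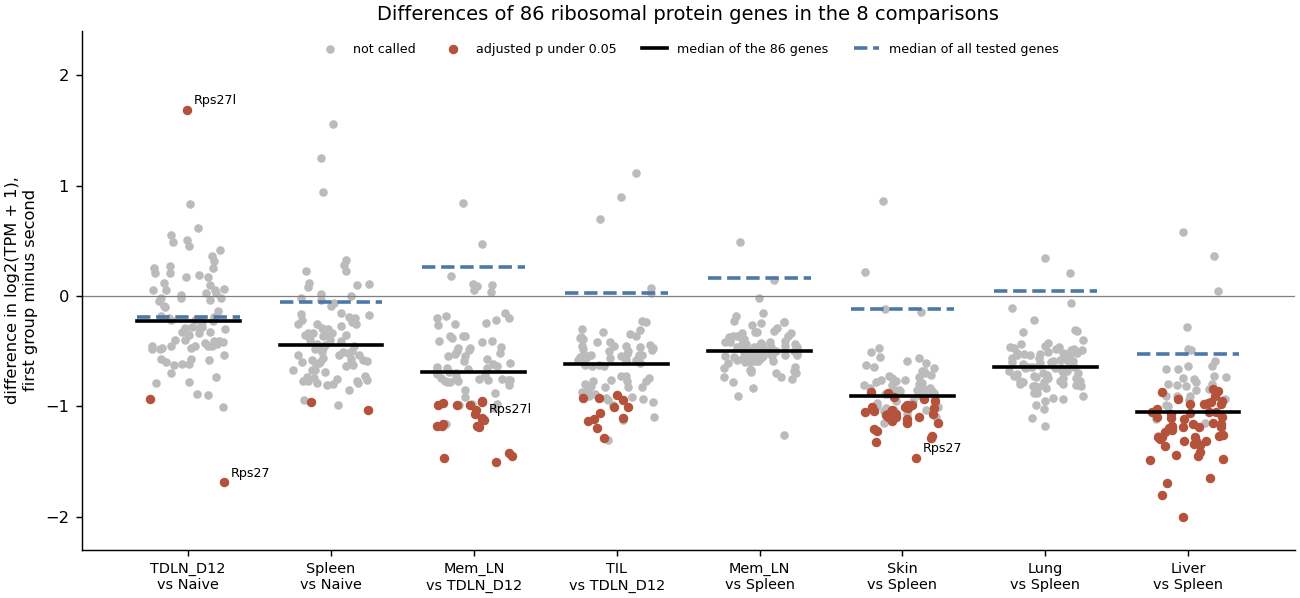
Difference in log2(TPM + 1), first group minus second, of each of the 86 tested ribosomal protein genes (points) in 8 comparisons, with red for an adjusted p under 0.05 (limma), a black line for the members' median and a dashed blue line for the median of all tested genes. The black line is below the blue line in all 8 comparisons, by the least in TDLN_D12 vs Naive (-0.23 and -0.19).

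In Skin, Rpl29 of the large subunit was at 196, 243, 262 and 115 TPM, against 698, 522, 465 and 341 TPM in Spleen libraries (-1.33 ± 0.26, adjusted p 0.00107). Rps24, another gene of Diamond-Blackfan anaemia in humans, was at 265.3, 409.8, 418 and 289.6 TPM in Skin, against 865, 909, 1082 and 560.4 TPM in Spleen libraries (-1.29 ± 0.32, adjusted p 0.00865). Both genes were lower in every Skin library. Rps27 was the largest difference, at 829, 1118, 1339.6 and 247 TPM in Skin, against 2201, 2375, 3251 and 1055 TPM in Spleen libraries (-1.47 ± 0.41, adjusted p 0.0227). Its groups overlapped, and the call was lost without Skin 4, where the difference was -0.94 with an adjusted p of 0.129, and without Spleen 1, 2 or 3 (adjusted p 0.0517 to 0.0961). Skin libraries also held 190 to 3512 TPM of 10 keratinocyte genes, against 21.1 to 22.9 TPM in Spleen libraries, and the part of such cells in these values was not tested.
The Skin count was 8 without Skin 4 or Spleen 1, 7 without Skin 1, 5 without Spleen 3, 15 without Spleen 2 and 55 without Spleen 4, where 2.07% to 3.65% of all genes were called lower in fits without 1 library. In 20 members every Skin library was below every Spleen library and in 0 above, which held for 5.69% and 3.4% of all genes. With only Skin and Spleen libraries in the fit the count was 0, where 1.52% of all genes were called lower. Without the 6 libraries low in T cell genes the differences were -1.25 for Rpl29, -1.41 for Rps24 and -1.26 for Rps27 (adjusted p 1.55e-05, 0.00114 and 0.00202).

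In Liver, Rpl13 of the large subunit was at 1395, 466.5, 917 and 760.5 TPM, against 1946, 2042, 4121 and 1505 TPM in those of Spleen (-1.44 ± 0.31, adjusted p 0.00408). Rps24 was at 328, 153, 526 and 295 TPM in Liver libraries, against 865, 909, 1082 and 560.4 TPM in those of Spleen (-1.48 ± 0.32, adjusted p 0.00355). Neither gene overlapped between the groups, as held for 20 members in all, where 6.04% of all genes were lower without overlap and 1.12% higher, the direction of 0 members. The 3 largest differences were those of Rps12l1 (-2.01 ± 0.60, adjusted p 0.0282), Rpl12 (-1.80 ± 0.48, adjusted p 0.0149) and Rpl11 (-1.69 ± 0.45, adjusted p 0.0146), all with overlap. Rpl11 was at 249.7, 28.4, 253 and 101 TPM in Liver libraries, against 559, 433, 496 and 172 TPM in those of Spleen, with Liver 2 the lowest. Liver 2 had 10732 genes above 0 and 23.5% of its TPM in mitochondrial transcripts, against 17321 to 23612 genes and 1.49% to 8.99% in the other Liver libraries. Without Liver 2 the count was 20 and without Spleen 3 it was 30, where 3.88% and 6.82% of all genes were lower, and with a weight for each group's own spread it was 0, where 0.233% were. Without the 6 libraries low in T cell genes, 3 of them from Liver, Rps24 stayed called (-1.53, adjusted p 0.0291). Rpl13 (-0.86, adjusted p 0.112), Rpl11 (-0.98, adjusted p 0.0637), Rpl12 (-0.99, adjusted p 0.104) and Rps12l1 (-1.73, adjusted p 0.144) did not. Hepatocyte genes summed to 870.4 to 36210 TPM in Liver and 47.7 to 351 TPM in Spleen libraries, with 10 of 10 averaging at least 1 TPM in Liver and 6 of 10 in Spleen. The part of such cells in these values was not tested.
Relative to the family median Rps27l (0.81 ± 0.27, adjusted p 0.0499) and the low-level copy Rps3a3 were called higher in Liver, against 10.5% of all genes, and 0 lower, against 0.258%. In Skin Rps3a2, at 0 in all Spleen libraries, was called higher, against 16.5% of all genes, and 0 members lower, against 0.684%. Centring raises each gene's difference by the amount the family median is lower, also for a gene near 0 TPM in both groups. The calls of the low-level Rps3a2 and Rps3a3 therefore restate in part the difference of the family. In Lung and Mem_LN none was called relative to the family median, where limma called 0.527% and 1.16% of all genes higher and 0.0101% and 0.0608% lower. The largest Lung difference was that of Rps12l1, at 40.7, 182, 168 and 54.8 TPM in Lung, against 293, 221, 313 and 89.9 TPM in Spleen libraries, with overlap (-1.18 ± 0.60, adjusted p 0.703). The next was that of Rpl22l1, without overlap, with 129, 58.1, 188 and 124 TPM in Lung, against 263, 232, 301 and 210.5 TPM in Spleen libraries (-1.11 ± 0.32, adjusted p 0.217).

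Counts in the 4 lists that follow stand against the shares of all genes called higher or lower and the medians of all genes given with each comparison above. Of 40 ribosome biogenesis genes, which make and assemble ribosomal RNA, 0 were called in TDLN_D12 against Naive cells, 1 was lower in Mem_LN and 1 in TIL against TDLN_D12 cells. That gene was Npm1, nucleophosmin, at 257 ± 39 TPM in Mem_LN, 294 ± 69 TPM in TIL and 684 ± 50 TPM in TDLN_D12 libraries (-1.42 ± 0.28, adjusted p 0.00143 in Mem_LN and -1.24 ± 0.28, adjusted p 0.00596 in TIL). The median difference of the list was -0.21 in TDLN_D12 against Naive, -0.21 in Mem_LN against TDLN_D12, -0.32 in TIL against TDLN_D12 and -0.74 in Spleen against Naive cells, where Npm1 alone was called lower. The median of all genes in these 4 comparisons was -0.19, 0.26, 0.03 and -0.05. In Liver against Spleen 11 were lower, led by Nob1, Polr1e and Rrp9, where 11.1% of all genes were, and in Skin 1, Rrs1, where 3.34% were.
Of 22 other genes with TOP mRNAs, mostly elongation and initiation factors, 6 were lower and 1 higher in Mem_LN against TDLN_D12 cells, where 2.99% and 4.42% of all genes were. In TIL against TDLN_D12 cells 4 were lower, where 2.42% of all genes were. The median difference of the list was -0.77 in Mem_LN and -0.74 in TIL against TDLN_D12 cells, and 0.18 in TDLN_D12 against Naive cells, beside 0.26, 0.03 and -0.19 for all genes. The lower ones included Hnrnpa1 (69 ± 9 TPM in Mem_LN and 276 ± 29 TPM in TDLN_D12 libraries, adjusted p 0.00908), Naca in Mem_LN, and the elongation factor Eef1a1 in TIL (1101 ± 248 TPM in TIL and 2356 ± 176 TPM in TDLN_D12 libraries, adjusted p 0.00943). The 1 higher gene was Eif4a2, a helicase of initiation, at 155 ± 15 TPM in Mem_LN and 71.3 ± 4.0 TPM in TDLN_D12 libraries (adjusted p 0.0475). Eif4a2 was also the 1 gene of the list called in TDLN_D12 against Naive cells, where it was lower (71.3 ± 4.0 TPM in TDLN_D12 and 239.5 ± 13.9 TPM in Naive libraries, adjusted p 0.000715). In Spleen against Naive cells 3 were lower (Eif4a2, Eef1a1 and Npm1), in Skin against Spleen 5 and in Liver against Spleen 13, where 2.46%, 3.34% and 11.1% of all genes were lower. Npm1 is on both lists.

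Of 18 genes of mTORC1 and TOP control, 2 were lower in TDLN_D12 against Naive cells, where 5.14% of all genes were: Rictor, of the other mTOR complex (7.51 ± 0.70 TPM in TDLN_D12 and 29.1 ± 2.7 TPM in Naive libraries, adjusted p 0.0334), and Tsc1, an inhibitor of mTORC1 (3.37 ± 0.83 TPM in TDLN_D12 and 11.9 ± 1.8 TPM in Naive libraries, adjusted p 0.0192). In Spleen against Naive cells Eif4ebp1, a repressor of initiation, was higher (57.1 ± 38.1 TPM in Spleen and 12.6 ± 1.6 TPM in Naive libraries, adjusted p 0.00084) and Rictor lower. Its relative Eif4ebp2 was lower in TIL against TDLN_D12 cells (10.1 ± 2.2 TPM in TIL and 70.4 ± 10.2 TPM in TDLN_D12 libraries, adjusted p 0.00702). In Liver against Spleen 3 were lower, Eif4ebp2, Akt1s1 and Larp1.
The 77 mitochondrial ribosomal protein genes, which build the separate ribosome of mitochondria, had 7 called higher and 0 lower in TDLN_D12 against Naive cells, with a median of 0.34, where 5.95% of all genes were higher and their median was -0.19. In Mem_LN against TDLN_D12 cells 0 were higher and 2 lower, with a median of -0.35, and in TIL 0 and 1, with a median of -0.48, beside medians of 0.26 and 0.03 for all genes. In Skin against Spleen 16 were lower and 0 higher, with a median of -0.79, beside -0.12 for all genes. In Liver against Spleen 26 were lower and 0 higher, with a median of -0.97, beside -0.53 for all genes. Of all genes 3.34% were lower in Skin and 11.1% in Liver. None was called in Lung or Mem_LN against Spleen or in Spleen against Naive cells, with medians of -0.20, -0.01 and 0.06. Whether the 2 families differ from each other was not tested.

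The genes outside the family whose level was most like its median over the 32 libraries were in part its own copies. Among 3330 candidates with a mean log2 of at least 5, the highest Pearson r were those of Gm10275, a copy of Rpl12 (0.95), the elongation factor Eef1b2 (0.95), Gnb2l1 (0.94), the older symbol of Rack1, which sits on the small subunit, and Gm7536, a copy of Rpl27a (0.94). Gm9843 (0.93), Gm15500 (0.93), Gm10288 (0.91), Naca (0.91), RP23.235E15.1 (0.91) and Gm2000 (0.90) followed. The points share groups and library scaling, so these values are a description, given with no test. Within the family the correlation with the median of the other members ran from -0.43 for Rps3a2 to 0.97 for Rpl30.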

How the data were processed

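The authors deposited 1 table of natural log values of TPM + 1 for 32 libraries, a unit settled from the values: converted back, each library sums to between 999999.06 and 1000000.8 TPM in steps of 0.01. Bowtie and mm10 are named in the submitters' processing notes. The sources used here do not give the version, annotation, strand handling or placement of reads with several matches. Read counts were not used, so depth and counting error are unknown.

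TPM were converted to log2(TPM + 1), which understates changes of low genes. Genes with at least 1 TPM in 4 libraries were fitted in 1 linear model of 8 groups (limma 3.58.1 with an abundance trend, R 4.3.3, 24 residual degrees of freedom), checked on simulated data. P-values were adjusted by Benjamini-Hochberg over all tested genes in each of 8 comparisons, and 0.05 was the threshold. In a second fit each library was centred on the median log2 of its members. Members, gene lists and comparisons were chosen with earlier results of these data known.

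Genes are named by rule: core members and paralog pairs, the 3 largest called changes in each direction, as levels and relative to the family median, the 4 highest and lowest members, up to 3 called genes per list, and the 10 most similar genes. Rps27rt and the copies were chosen after their values were seen, as were the per-library examples. A gene that the rule names is not reported here. Libraries sharing a number did not meet the pairing criterion (correlations of deviations from -0.374 to 0.417). Python 3.11.15, NumPy 2.4.6, pandas 2.3.3 and Matplotlib 3.10.9 served for sums, words and figures.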

Additional observations from a re-analysis of the deposited data

Results flagged for a closer look

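In groups of 4, a library was listed where its gap to the nearest other library, as a part of the group's range, was over Dixon's critical value. Of 336 groups of values examined, 22 were listed (6.55%), where chance lists about 1 in 20. No group was listed for the summed family.

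TIL 1 stood above the other TIL libraries in 10 of the 22. It had 273 TPM of Rpl22, 269 TPM of Rpl22l1, 319 TPM of Rpl36a, 397 TPM of Rpl39 and 1036 TPM of Rplp2. It also had 2110 TPM of Rps19, 1013 TPM of Rps26, 635 TPM of Rps27a, 596 TPM of Rps27l and 419 TPM of Rpsa. TIL 1 also had the highest T cell sum of its group, 35331 TPM.

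Spleen 3 was high in Rpl3 (818 TPM, next 491 TPM) and Rps2 (1022 TPM, next 549 TPM). Spleen 1 had 73.6 TPM of the testis paralog Rpl39l, where the next Spleen library had 4.29 TPM, and Liver 1 had 12.3 TPM of it, where the next had 1.14 TPM. Naive 1 was high in Rpl28 (362 TPM) and Rplp2 (2087 TPM).

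Rps27l made up 58.7% of its pair with Rps27 in Skin 4, where the next Skin library was at 19.7%. Rpl22l1 made up 24.3% of its pair with Rpl22 in Lung 2, where the nearest was at 42.8%. Rps15a was at 505 TPM in Lung 2 and 459.98 TPM in Liver 3, against next values of 274 and 189 TPM in those groups. Rpl28 was low in Lung 4, at 102 TPM, and Rpl7 in Lung 1, at 346 TPM.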

How the results depend on the processing

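The members' median was negative in all 8 comparisons under each setting but centring on the family median. Counts of members called are given next as TDLN_D12 vs Naive, Spleen vs Naive, Mem_LN vs TDLN_D12 and TIL vs TDLN_D12, where they moved by over 1.5 times. With only the 2 groups compared in the fit, 10, 2 and 1 were higher in the first 3 and 36, 4, 65 and 55 lower in the 4, and 0 were lower in Skin and in Liver against Spleen. Of all genes 44.1%, 4.85%, 17.5% and 32.2% were then lower in the first 4, and 28.3%, 6.68% and 34.3% higher in the first 3. In Skin and in Liver against Spleen 1.52% and 0.0377% of all genes were lower. With weights for each group's spread, 10, 1, 1 and 3 were higher and 40, 7, 61 and 68 lower, with 5 lower in Skin and 0 in Liver against Spleen. Of all genes 36.7%, 6.39%, 10.9% and 21.5% were then lower in the first 4 and 2.31% and 0.233% in the last pair. In TDLN_D12 against Naive 3951 of the 19738 tested genes were higher in that fit, and in Spleen against Naive 6.38%. Against TDLN_D12 27.3% of all genes were higher in Mem_LN and 23.7% in TIL. Without the 6 libraries low in T cell genes, 3, 1 and 1 were higher in the first 3, against 10.8%, 7.43% and 13.5% of all genes. In the first 4, 17, 12, 53 and 32 were then lower, against 12.1%, 14.6%, 6.77% and 6.09% of all genes. Against Spleen 68 were then lower in Skin, 63 in Lung, 22 in Liver and 59 in Mem_LN. Centred on the family median, 4, 2, 6 and 2 were higher and 2, 0, 3 and 0 lower, against Spleen 1 was higher and 0 lower in Skin and 2 higher and 0 lower in Liver, and the F test called 21. Quantile normalization gave 14 lower in TDLN_D12 and 28 in Spleen against Naive, where 4.43% and 4.06% of all genes were. It gave 1 higher in Mem_LN against TDLN_D12, where 2.81% of all genes were. It moved the median of all genes in Liver against Spleen to -0.19, where it was -0.53, and in Mem_LN against TDLN_D12 to 0.02, where it was 0.26. With no filter 1 was lower in TDLN_D12 and 1 in Spleen against Naive, and 20 in Skin against Spleen, against 2.16%, 1.23% and 1.3% of all genes. Rescaling without mitochondrial and marker genes gave 1 higher in Spleen against Naive, where 3.47% of all genes were. Adding copies by shared words, chosen after seeing the data, gave 4 lower in TDLN_D12 and 4 in Spleen against Naive, against 5.19% and 2.48% of all genes. Without the libraries numbered 4, also chosen after seeing the data, 4 were lower in TDLN_D12 and 0 in Spleen against Naive, 1 was higher and 13 lower in Mem_LN and 3 lower in TIL against TDLN_D12, and 1 was lower in Mem_LN against Spleen. Of all genes 3.36%, 2.74%, 2.11%, 1.1% and 0.193% were then lower, and 3.26% were higher in Mem_LN against TDLN_D12. Without these libraries 51 of the 76 named calls held. The causes were not tested.

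With replicate number as a block, 4 members were lower in TDLN_D12 against Naive, where 5.26% of all genes were. The F test then called 78 members, against 47.6% of all genes, and 75 of the 76 named calls held. Same-numbered libraries deviated with mixed signs, and nothing in the labels says that a number marks a batch or pair. Whether it does was not tested.

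Leaving out 1 library gave 1 to 1 higher and 1 to 1 lower in TDLN_D12 against Naive, 0 to 6 lower in Spleen against Naive, 9 to 18 in Mem_LN and 4 to 24 in TIL against TDLN_D12, 5 to 55 in Skin, 20 to 69 in Liver, and 0 to 0 in both Lung and Mem_LN against Spleen. Of all genes 3.28% to 3.65% were then lower in TDLN_D12 and 1.25% to 3.73% in Spleen against Naive. Against TDLN_D12 it was 1.97% to 2.45% in Mem_LN and 1.26% to 2.48% in TIL. Against Spleen it was 2.07% to 3.65% in Skin, 3.88% to 23.1% in Liver, 0.0304% to 0.172% in Lung and 0.0557% to 0.157% in Mem_LN. The F test called 69 to 79 members in these fits. With all libraries it called 46.9% of all genes. The named calls lost their side of the threshold in 196 of 608 such fits. The sign turned for Eif3l in Liver against Spleen without the low identity libraries (0.13), and, centred, for Rpl3 (0.22), Rpl39 (0.069), Rplp0 (0.23) and Rps4x (0.11) in Liver and Rps4x (0.053) in Skin against Spleen. Relative to all genes the family median in TDLN_D12 against Naive was -0.04, but 0.10 with a pseudocount of 0.1 TPM and 0.02 with only the 2 groups. It went the other way with quantile normalization, where the median member differed by -0.37 and the median gene by -0.07. Depth is unknown, so counting error could not be set apart from the spread between libraries.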
